A study of Mus musculus with 2 samples.

Results

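The mitochondrial ribosomal proteins, named Mrpl for the large and Mrps for the small subunit, were examined in RNA of whole mouse colon. The members were all genes whose array probe carried a RefSeq accession of a symbol made of Mrpl or Mrps and a digit. There were 78 of them among 22905 genes named on the arrays. The gene table holds 84 such symbols. The 6 that matched no probe are pseudogenes (Mrpl23-ps1, Mrpl27-ps, Mrpl48-ps, Mrps36-ps1, Mrps36-ps2 and Mrps36-ps3). All 78 members were well above background on both arrays, so each had a measured ratio and none needed a bound.

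Mice of the C57BL/6 strain carried either Villin-Cre alone or Villin-Cre; EP4flox/flox (EP4 cKO), so both groups carried the Cre transgene. The villin promoter makes Cre in the intestinal epithelium, where it deletes the floxed segment of Ptger4, which codes for the prostaglandin E2 receptor EP4, whereas the RNA came from the whole colon with muscle, stroma and leukocytes. The mice of the study were 8 weeks old. RNA combined from 3 pools of colon was hybridized per genotype, 1 array each. With 1 array per genotype, no difference had a replicate check and no test was made, and every value describes these arrays only. In whole tissue, fewer cells of a type and less RNA per cell cannot be told apart.

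Mitochondria keep a small genome that codes for a few core subunits of the respiratory chain and ATP synthase, and a dedicated ribosome in the matrix translates them. Its ribosomal RNAs are made in the organelle, but every protein of it is coded in the nucleus, made in the cytosol and imported. Compared with its bacterial ancestor the mitoribosome has less RNA and more protein. Some of its proteins have bacterial counterparts and others exist only in mitochondria. Colonic epithelium burns butyrate in its mitochondria and is rich in them.

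Ptger4 served as the check of the labels. Throughout, the normalized signal of the array labelled Villin-Cre is given first and that of the array labelled EP4 cKO second. The brighter probe of Ptger4 had 6227 and 5661, and its dimmer probe had 393 and 592. These probes did not show the deletion in whole colon, and it is not known here whether they lie in the deleted part. On the arrays, 25683 and 29177 of 56593 probes were well above background in the same order, and no spot was saturated. For 278 probes with at least 8 spots, log2 ratios varied over the spots with a median SD of 0.035, which covers spots of 1 hybridization and no difference between mice. Each member probe had 1 spot.

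The start sites of mitoribosome genes were described first, because many of them share letters and share their upstream region with another gene. A RefSeq promoter (250 bases before to 50 after the start, GRCm38.p6) was matched by symbol for 69 of the 78 genes. Both strands were searched for the core letters bound by 3 factors known to act on nuclear genes of mitochondria. The NRF1 letters GCGCATGCG stood in 7 of the 69 (10.1%), against 2.61% of 17491 coding genes and 3.93% of the 9873 of these that were well above background on both arrays. A complete NRF1 palindrome matches on both strands with an overlap and was counted as 1 gene. The ETS letters CCGGAAG, the core of sites for GABP, stood in 26 (37.7%), against 12.9% and 19.5%. The YY1 letters AAGATGGC stood in 12 (17.4%), against 3.57% and 5.26%. ETS and YY1 letters can overlap in the bases AAG. TATA letters (TATAAA) stood in 5 (7.25%), against 14.8% and 9.997%, and letters of an interferon response element (GAAANNGAA) in 7 (10.1%), against 9.43% and 8.38%. A match is a description of the sequence and not a measured binding site.

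4 promoters are shown because they carry these letters in the genes the results turn on. Mrpl27 (chr11:94653541-94653840, plus strand) had the highest ratio as scaled here. Mrpl42 (chr10:95501900-95502199, minus strand) had the lowest ratio away from the background. Mrpl32 (chr13:14612988-14613287, minus strand) had the most NRF1 matches. Mrps12 (chr7:28741772-28742071, minus strand) starts beside a mitochondrial tRNA synthetase. The promoters are written in the direction of the gene, and the capitals mark NRF1, ETS or YY1 letters on either strand.
Mrpl27: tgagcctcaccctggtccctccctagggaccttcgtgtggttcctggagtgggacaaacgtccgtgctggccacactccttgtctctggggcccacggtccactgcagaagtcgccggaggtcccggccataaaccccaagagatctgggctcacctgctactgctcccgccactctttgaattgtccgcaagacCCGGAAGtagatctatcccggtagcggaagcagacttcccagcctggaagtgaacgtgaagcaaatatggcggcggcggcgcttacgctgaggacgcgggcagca
Mrpl42: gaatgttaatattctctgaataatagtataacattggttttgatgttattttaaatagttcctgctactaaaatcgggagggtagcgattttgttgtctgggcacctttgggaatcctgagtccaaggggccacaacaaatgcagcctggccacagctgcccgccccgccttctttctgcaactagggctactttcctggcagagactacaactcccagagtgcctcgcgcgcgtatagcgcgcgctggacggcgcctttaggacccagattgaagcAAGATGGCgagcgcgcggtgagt
Mrpl32: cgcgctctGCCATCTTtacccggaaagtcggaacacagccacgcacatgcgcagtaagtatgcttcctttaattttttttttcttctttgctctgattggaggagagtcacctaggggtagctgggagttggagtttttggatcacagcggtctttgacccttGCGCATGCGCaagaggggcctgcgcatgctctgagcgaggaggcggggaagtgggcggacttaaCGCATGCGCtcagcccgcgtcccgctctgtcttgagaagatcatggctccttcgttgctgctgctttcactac
Mrps12: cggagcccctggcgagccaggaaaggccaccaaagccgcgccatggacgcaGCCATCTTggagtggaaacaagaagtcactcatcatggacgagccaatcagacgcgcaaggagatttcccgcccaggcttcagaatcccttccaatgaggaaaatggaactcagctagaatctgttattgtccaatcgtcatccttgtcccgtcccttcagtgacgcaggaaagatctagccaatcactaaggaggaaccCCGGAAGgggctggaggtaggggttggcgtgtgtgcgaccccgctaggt

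Mrpl27 holds ETS letters, Mrpl42 holds YY1 letters just after its start, Mrpl32 holds NRF1 and YY1 letters, and Mrps12 holds ETS and YY1 letters. Mrps6, with the highest ratio in the small subunit, had none of these 3 in its promoter.

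To ask how the proteins of the mitoribosome differed between the genotypes, processed signals of each array were scaled to a trimmed mean of 2500, and the log2 ratio of the array labelled EP4 cKO over the array labelled Villin-Cre was taken at the brightest probe of each gene. No member differed by more than 2-fold in either direction. Among all 14666 genes with a value, 4.86% were past 2-fold towards the array labelled EP4 cKO and 7.87% past 2-fold the other way. No member was more than 1.5-fold higher, a size reached by 9.85% of all genes. Only Mrpl35 and Mrpl42 were more than 1.5-fold lower, a size reached by 18.6% of all genes. The median log2 ratio of the members was -0.09, beside -0.10 for all genes. Their spread was narrower than that of all genes, with an interquartile range of 0.22 against 0.62. The lowest log2 ratio was -0.94 and the highest 0.51.

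The side of 0 on which these small ratios fall depends on the scale. As scaled here, 22 of the 78 members (28.2%) had a log2 ratio above 0, beside 36.3% of all genes. All other members were below 0, as were 57.5% of all genes, and the rest of the genes were counted at 0. With each array scaled to its 75th percentile, 52 (66.7%) were above 0, with the trimmed mean over all spots 47 (60.3%), after loess on mean signal 38 (48.7%), and after normexp with quantile normalization 29 (37.2%). These settings moved the median of all genes up by 0.10, 0.10, 0.14 and 0.10. Relative to the median of all genes, the median of the members lay between -0.06 and 0.08 under every scaling tried. The order of the genes moved less. Scaling to the 75th percentile, to the trimmed mean over all spots or to E1A control spots adds the same amount to every member, so it cannot reorder them. Keeping only probes well above background, or leaving dim probes unfiltered, changed no member. Order could move after loess, after normexp, with the same floor on both arrays and with probes averaged. In each of these the 8 highest shared at least 7 genes with the 8 highest reported, and likewise the 8 lowest.

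**Figure D1:**
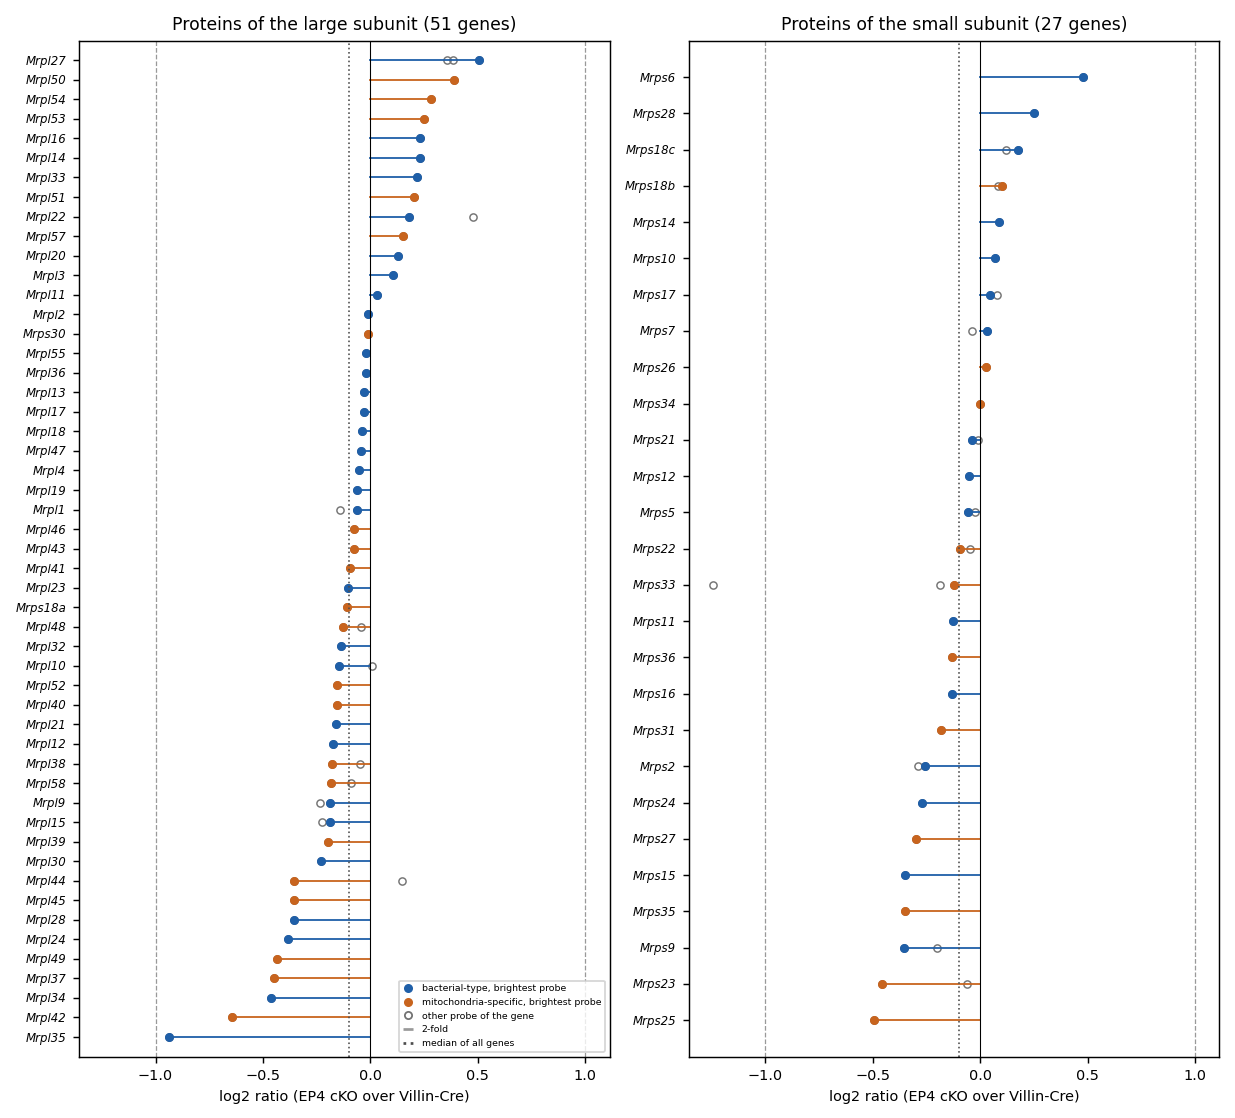
The log2 ratio (EP4 cKO over Villin-Cre) of each of the 78 mitoribosome genes, ranked within the large and the small subunit, with bacterial-type proteins in blue, mitochondria-specific ones in orange and other probes of a gene as open circles. All filled points lie between the dashed 2-fold lines, from Mrpl35 at -0.94 to Mrpl27 at 0.51, and 1 open circle, of Mrps33, lies beyond.

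The highest ratios came from proteins of both subunits. Mrpl27, whose bacterial counterpart reaches towards the site where peptide bonds are made, had 18369 and 26069 (1.42-fold higher). Its other 2 probes, with log2 ratios of 0.38 and 0.36, were higher on the same array. Mrps6, which sits in the small subunit beside Mrps18c, had 37906 and 52747 (1.39-fold higher). Its neighbour Mrps18c had 19536 and 22082. Both of this pair were thus higher on the array labelled EP4 cKO, as scaled here.

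Mrpl50, a mitochondria-specific protein of the large subunit, had 929 and 1215 (log2 ratio 0.39). The highest member was Mrpl50 after loess (0.57) and after normexp (0.49), and Mrps6 (0.48) with all probes of a gene averaged. Mrpl54 had 17845 and 21674 (0.28) and Mrpl53 had 13807 and 16424 (0.25). These last are mitochondria-specific proteins at the base of the stalk on the large subunit. The next were Mrps28, with 15642 and 18600 (0.25), Mrpl16, with 8933 and 10477 (0.23), and Mrpl14, with 53745 and 62980 (0.23). Mrpl14 and Mrpl16 have bacterial counterparts in the core of the large subunit. Of the 8 highest, all but Mrpl27 had 1 probe.

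The lowest ratio, of Mrpl35, rests on a dim probe. It had 156 and 81.4, where the dimmest signals called well above background were 125 and 57.8. Its log2 ratio of -0.94 was -0.31 with one floor for both arrays, -0.20 after loess and -0.16 with normexp. Mrpl42, a mitochondria-specific protein of the large subunit with a bright probe, had 32722 and 20929 (1.56-fold lower). Its log2 ratio of -0.64 was -0.62 after loess and -0.66 with normexp.

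The next lowest came from both subunits. Mrps25, a mitochondria-specific protein of the small subunit, had 15294 and 10858 (log2 ratio -0.49). Mrpl34, a small bacterial-type protein, had 16766 and 12172 (-0.46). Mrps23 had 28770 and 20937 (-0.46) at its brightest probe, and 2958 and 2836 (-0.06) at a second probe that carries another accession. The lower signal was thus clear at 1 of its probes.

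Mrpl37 had 14103 and 10334 (-0.45), Mrpl49 had 2997 and 2219 (-0.43), and Mrpl24 had 38331 and 29364 (-0.38). Mrpl37 and Mrpl49 are mitochondria-specific, and Mrpl24 has a bacterial counterpart near the exit of the peptide tunnel. After loess and after normexp Mrpl49 had -0.30 and -0.38. The 8 lowest were below 0 and the 8 highest above 0 under every scaling except that to the E1A control spots, which put all 78 members above 0.

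Several probes of a gene gave a view of the error of a single probe. In all, 101 probes measured the members, and 21 genes had more than 1. The gap between the highest and lowest log2 ratio within a gene had a median of 0.08, and it was under 0.2 in 17 of the 21. The probes had the same sign in 18 genes and opposite signs in 3. Mrpl10 had -0.15 and 0.01, and Mrps7 had 0.03 and -0.04, so both lay near 0. Mrpl44, a protein with a ribonuclease III fold, had 4914 and 3845 (-0.35) at its brighter probe and 849 and 940 (0.15) at its dimmer one.

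Mrps33 held the only probe past 2-fold. The dimmest of its 3 probes had 610 and 257 (log2 ratio -1.24), whereas its brighter probes had -0.12 and -0.19. Mrpl22 had 0.18 at its brighter probe and 0.48 at its dimmer one. Differences between members are thus to be read beside gaps of this size within a gene.

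The subunits had nearly the same middle. The 51 proteins of the large subunit had a median log2 ratio of -0.08 and the 27 of the small subunit -0.09. Proteins were counted by the subunit that holds them, so Mrps18a and Mrps30, which sit in the large subunit despite their names, were counted there. Mrps18a had 8955 and 8292, and Mrps30 had 5220 and 5182. The symbol Mrps36 was kept with the small subunit (19954 and 18214), although its protein is also known as a part of the 2-oxoglutarate dehydrogenase complex.

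The 46 proteins with a bacterial counterpart had a median of -0.05, with 15 above 0. The 32 mitochondria-specific ones had a median of -0.13, with 7 above 0. After loess the medians were 0.02 and -0.09, after normexp -0.02 and -0.12, and with the 75th percentile 0.11 and 0.03. Scaling to the 75th percentile adds the same amount to every member and cannot change the difference between the classes. The bacterial-type proteins had the higher median as scaled here, after loess and after normexp. As scaled here the difference was about the gap that separated probes of 1 gene, although that gap does not measure the error of a group median. This difference was not tested.

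The stalk of the large subunit recruits translation factors. Its 5 proteins had a median of 0.03. Mrpl12, the mobile arm of the stalk, had 40548 and 35910 (-0.18), and Mrpl10, which anchors it, had 3911 and 3536 (-0.15). Mrpl11, at its base, had 17352 and 17746 (0.03). The mitochondria-specific Mrpl53 and Mrpl54 were the highest of the 5, so the arm and its added partners lay on opposite sides of 0 as scaled here.

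The central protuberance is the region that holds 5S rRNA in bacteria and a transfer RNA in mammalian mitochondria. Its 7 proteins had a median of -0.13, and as scaled here 6 of them were below 0, against 2 with the 75th percentile. Mrpl27 stood apart with 0.51. Mrpl58, a peptidyl-tRNA hydrolase built into the ribosome, had 21822 and 19240 (-0.18). Mrpl38 had 2010 and 1775 (-0.18), Mrpl40 had 10705 and 9621 (-0.15), and Mrpl48 had 25344 and 23175 (-0.13). Mrpl46 (4792 and 4546) and Mrpl18 (13945 and 13588) lay closest to 0.

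The exit of the peptide tunnel faces the inner membrane. Its 8 proteins had a median of -0.15, and as scaled here 7 were below 0, against 4 with the 75th percentile. Mrpl45, which helps to tie the ribosome to the membrane, had 10771 and 8418 (-0.36), close to Mrpl24 and Mrpl44. Mrpl39 had 8337 and 7263 (-0.20), Mrpl23 had 30200 and 28091 (-0.10), Mrpl47 had 6378 and 6180 (-0.05), and Mrpl17 had 6574 and 6430 (-0.03). Mrpl22 was the only one above 0, with 15996 and 18086.

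The signals of the members were in the bright part of the arrays, where ratios of all genes are less spread. Over 10 equal groups of genes by mean signal, 70 of the 78 members lay in the brightest 4. In these 4, 5.76% of 5866 genes were past 2-fold in either direction, against 25.5% in the dimmest group. The interquartile range of all genes there was 0.56, whereas that of the 70 members was 0.23, and the medians were -0.07 and -0.08. The narrow spread was thus present beside genes of like signal, and the interquartile range was similar in the respiratory chain (0.22) and smaller in cytosolic ribosomal proteins (0.17).

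**Figure D2:**
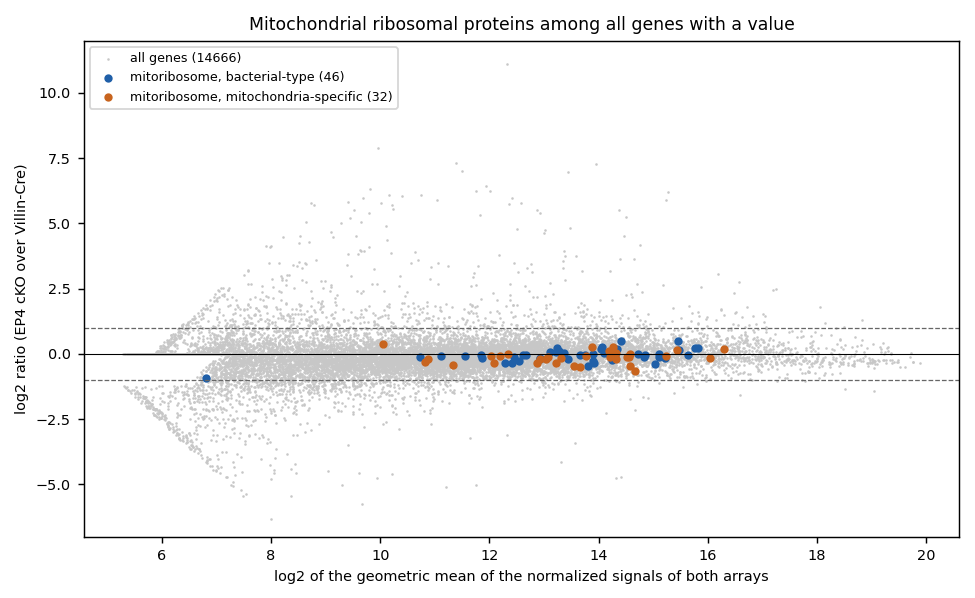
The log2 ratio (EP4 cKO over Villin-Cre) against the log2 of the mean normalized signal, with all 14666 genes in grey and the members in blue (46 bacterial-type) and orange (32 mitochondria-specific). The members form a narrow band between the dashed 2-fold lines, and 1 member, Mrpl35, lies at the dim end where the grey points spread.

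The other genes of mitochondrial translation were described by lists, and none of their genes with a value was past 2-fold, beside 4.86% (higher) and 7.87% (lower) of all genes. The 5 proteins of the mitoribosome with other symbols had a median of -0.23, all below 0 as scaled here. Dap3, a GTP-binding protein of the small subunit also known from cell death, had 40546 and 28383 (-0.51). Ptcd3, an RNA-binding protein of the small subunit, had 10379 and 8500 (-0.29). Gadd45gip1 had 9431 and 8041 (-0.23), Chchd1 had 25960 and 23307 (-0.16), and Aurkaip1 had 102557 and 92478 (-0.15).

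Translation factors (12 of 13 with a value, as Mtrfr had no match in the gene table) had a median of -0.30, or -0.14 after loess. Mrrf, which recycles ribosomes, had 7197 and 4194 (-0.78), and Tufm, the elongation factor that brings charged transfer RNAs, had 32076 and 21679 (-0.57). Mtrf1, of the release factor family, had 836 and 658 (-0.35, but -0.13 after loess and -0.09 with normexp). Tsfm, the exchange factor of Tufm, had 1133 and 1592 (0.49), so Tufm and Tsfm lay on opposite sides. Gfm1, the translocase, had 13889 and 17223 (0.31). Taco1, an activator of translation, had 454 and 425 (-0.10, but 0.15 after loess and 0.15 with normexp).

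The 20 genes that charge mitochondrial transfer RNAs, or convert a charged one (Qrsl1, Gatb and Gatc), had a median of -0.38, or -0.27 after loess. Pars2, for proline, had 3214 and 1901 (-0.76), Wars2, for tryptophan, had 416 and 261 at a dim probe (-0.67, but -0.39 after loess and -0.15 with normexp), and Fars2, for phenylalanine, had 23512 and 16440 (-0.52). Nars2, for asparagine, had 516 and 809 (0.65), Iars2, for isoleucine, had 2393 and 2879 (0.27), and Yars2, for tyrosine, had 3790 and 3835 (0.02). 16 of the 20 were below 0 as scaled here, beside 57.5% of all genes. This list was dim, with a median Villin-Cre signal of 2030, and all genes of like signal had medians of -0.17 and -0.16.

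The 19 factors of mitoribosome assembly and ribosomal RNA modification had a median of -0.36, but -0.10 after loess and -0.05 with normexp. Rpusd4, a pseudouridine synthase, had 4068 and 2173 (-0.90), Eral1, a chaperone of the small ribosomal RNA, had 2927 and 1788 (-0.71), and Mrm1, a methyltransferase of the large ribosomal RNA, had 6094 and 3856 (-0.66). At the other end were Malsu1 (15768 and 16835), Fastkd2 (1382 and 1422) and Mtg1 (3305 and 3370), which act on the large subunit.

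For transcription and RNA handling (15 genes) the median was -0.21, or -0.10 after loess. Prorp, the protein that cuts the front of transfer RNAs, had 212 and 125 (-0.76), close to the background, and -0.23 after loess and -0.13 with normexp. Polrmt, the mitochondrial RNA polymerase, had 3534 and 2408 (-0.55), and Hsd17b10, a partner in the same processing complex as Prorp, had 36002 and 25840 (-0.48). Pnpt1, an exoribonuclease, had 2676 and 3374 (0.33), Trmt10c, the methyltransferase of that complex, had 479 and 582 (0.28), and Slirp, an RNA stabilizer, had 22529 and 23954 (0.09).

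The 16 genes of membrane insertion and import had a median of 0.02, and 10 of them were above 0 as scaled here. Dnajc19, a partner of the import motor, had 20479 and 29670 (0.53), Letm1, an ion exchanger also linked to the mitoribosome, had 16536 and 21763 (0.40), and Cox18, an insertase, had 2506 and 2999 (0.26). Timm44, which links the import pore to its motor, had 14217 and 9769 (-0.54), Oxa1l, the insertase that receives the new chains from the tunnel, had 21242 and 15587 (-0.45), and Timm17b, of the import pore, had 23978 and 19089 (-0.33).

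Among the 9 regulators of mitochondrial biogenesis, the coactivator Ppargc1b had 12262 and 7354 (-0.74). Its relative Ppargc1a had 5237 and 5999 (0.20). Of the factors whose letters were sought in the promoters, Nrf1 had 2110 and 2142 (0.02), Yy1 had 7209 and 6093 (-0.24), Gabpa, the subunit of GABP that binds DNA, had 1351 and 1296 (-0.06), and its partner Gabpb1 had 2984 and 2756 (-0.11). The receptor Esrra had 68788 and 71461 (0.06). The median of the 9 was -0.06, and 0.09 after loess.

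The members with and without the promoter letters were set side by side. The 26 with ETS letters had a median log2 ratio of -0.05 and the other 43 of -0.13. The 7 with NRF1 letters had a median of -0.14 and the other 62 of -0.09. The 12 with YY1 letters, to which Mrpl35 and Mrpl42 belong, had a median of -0.20, and 1 of them was above 0 as scaled here, whereas 19 of the other 57 were. These differences were not tested.

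Many members started head to head with another gene. Counting genes on opposite strands whose starts were at most 1000 bases apart (with at most 100 bases of overlap), 25 of the 69 members with a promoter had such a neighbour (36.2%), against 8.66% of all 17491 coding genes and 13.01% of the 9873 measured on both arrays. In 1 pair both genes were members, Mrpl46 and Mrps11, whose starts lay 42 bases apart. Their log2 ratios were -0.08 and -0.13. Mrps12 lay 147 bases from Sars2, the mitochondrial synthetase for serine (1333 and 990), Mrpl43 lay 116 bases from Twnk, the mitochondrial DNA helicase (564 and 315), and Mrpl47 lay 308 bases from Ndufb5, a subunit of complex I (89452 and 84767). Each of these pairs thus joins genes of mitochondria.

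The 23 neighbours that were not members had a median log2 ratio of -0.24, whereas the members beside them had a median of -0.05. The neighbour had the lower ratio in 15 pairs and the higher in 8. Of the 23, 8 were more than 1.5-fold lower and 2 more than 1.5-fold higher, beside 18.6% and 9.85% of all genes. Several of the 8 had dim probes, where ratios of all genes are more spread, among them Zfp189 (254 and 165), Ska3 (477 and 276), Eme1 and Twnk. Mrpl27 and Eme1, which codes for a part of a DNA-cutting enzyme, start 48 bases apart. Eme1 had 479 and 213 (log2 ratio -1.17), the only neighbour past 2-fold, while Mrpl27 had the highest ratio of the members as scaled here. Mrpl51 (75379 and 86778) and Ncapd2, a condensin subunit (10735 and 5526), differed likewise. Mrpl30 (21090 and 18001) and Mitd1, which acts in abscission between dividing cells (1627 and 2964), differed the other way, and Mrpl32 (5874 and 5337) lay beside the proteasome gene Psma2 (65484 and 84481). The genes of each of these 4 pairs lay on opposite sides of 0 as scaled here. Among all 25 members with such a neighbour, 13 lay on the same side of 0 as the neighbour.

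**Figure D3:**
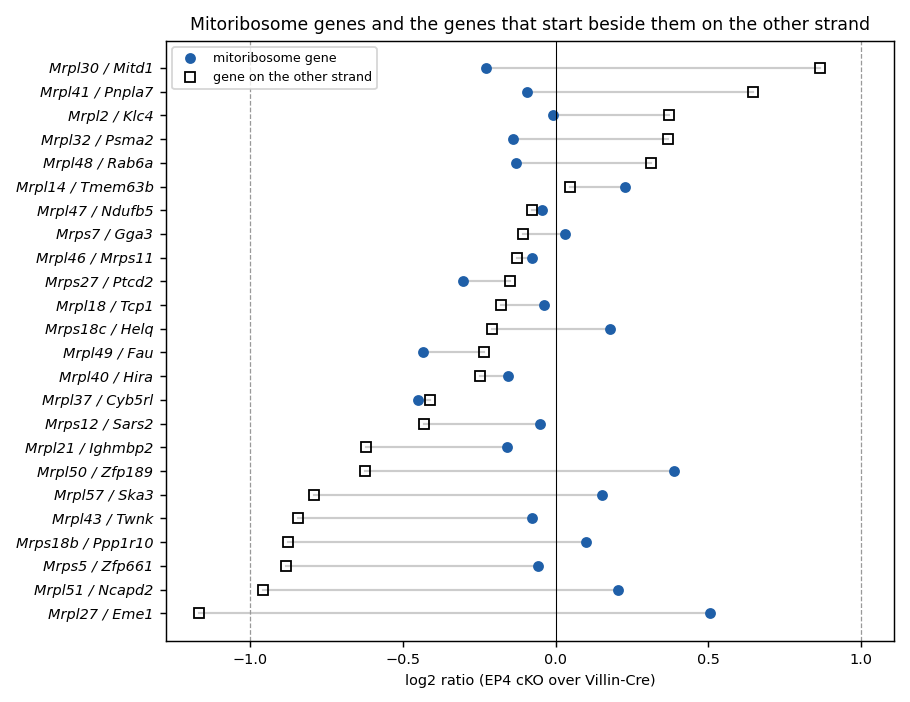
The log2 ratio (EP4 cKO over Villin-Cre) of each member (blue circle) and of the gene that starts beside it on the other strand (open square), 1 line per pair, 24 pairs, ordered by the ratio of the neighbour. The circles stay between -0.45 and 0.51, whereas the squares run from -1.17 (Eme1) to 0.87 (Mitd1).

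Like families were set beside the members. Cytosolic ribosomal proteins, which make up the ribosome that translates the members themselves, had a median of -0.29 in 83 genes with a value, with an interquartile range of 0.17, and 79 of them were below 0 as scaled here, beside 57.5% of all genes. That median was -0.17 after loess and -0.04 with normexp, so its distance from the members differed between these settings. Which step of the processing moved it was not tested. Nuclear-coded subunits of the respiratory chain and ATP synthase, which join the products of the mitoribosome, had a median of -0.02 in 84 genes, with an interquartile range of 0.22. Past 2-fold were Ndufa4l2, at least 2.17-fold higher, and the muscle-type subunits Cox8b, at least 5.82-fold lower, and Cox6a2, 3.43-fold lower, all dim (303 and 88.2 for Cox6a2). A bound is taken against the array where the probe was dim, at the higher of its own signal there and the dimmest signal well above background. Mitochondrial carriers had a median of -0.05 in 38 genes, with an interquartile range of 0.48, 2 past 2-fold higher (Slc25a20 and Slc25a22) and 3 lower (Slc25a36, Slc25a27 and Slc25a37), a share close to the 4.86% and 7.87% of all genes. The mRNAs coded by the mitochondrial genome were not analysed here.

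**Figure D4:**
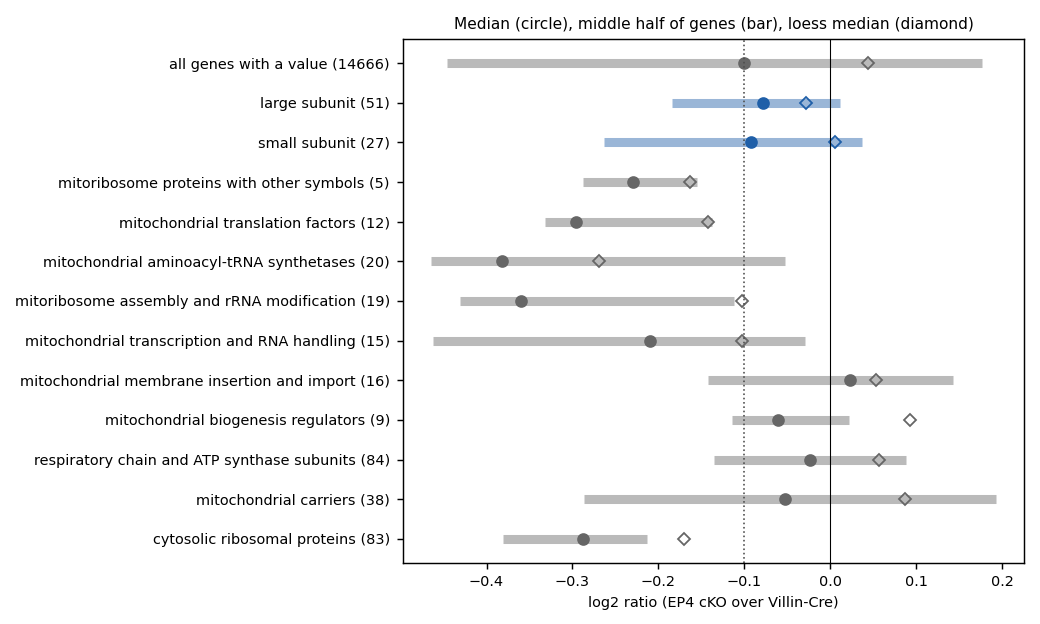
Median log2 ratio (circle, EP4 cKO over Villin-Cre), the range from the lower to the upper quartile (bar) and the median after loess on mean signal (diamond) for the subunits of the mitoribosome (blue), the related lists and all genes, with the number of genes in brackets. The subunits sit at -0.08 and -0.09 beside the median of all genes (dotted, -0.10). The synthetases (-0.38), assembly factors (-0.36), translation factors (-0.30), cytosolic ribosomal proteins (-0.29), mitoribosome proteins with other symbols (-0.23) and transcription genes (-0.21) sit lower. The synthetases, assembly factors, translation factors and transcription genes were dimmer, with median Villin-Cre signals of 2030, 2376, 2503 and 3272. All genes of like signal had lower medians too, -0.17 and -0.16 in the 5th and 6th of 10 equal groups. After loess these lists had -0.27, -0.10, -0.14 and -0.10, beside 0.04 for all genes.

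Markers of the cell types of the colon differed between the arrays. All 12 epithelial markers were measured, with a median log2 ratio of 0.08 and summed signals of 2812790 and 3220190. Krt20, a keratin of mature surface cells, was the only one past 2-fold (146575 and 510711), and without it the sums were 2666220 and 2709480. Of 6 fibroblast markers, 5 had a value and all 5 were more than 2-fold lower, with summed signals of 12957 and 304 (Dcn 6006 and 110), and Pdgfra was dim on both arrays. Of 8 smooth muscle markers 6 had a value, with sums of 32729 and 50164 and Cnn1 more than 2-fold lower, and Myh11 and Lmod1 were dim on both. Of 8 leukocyte markers 6 had a value, none past 2-fold, with a median of -0.05 and sums of 58238 and 75560, and Cd79a and Adgre1 were dim on both. Itgam (49347 and 68598) made up most of these sums, which without it were 8891 and 6962. Of 4 adipocyte markers 2 had a value, with sums of 914 and 5340, and Adipoq and Plin1 were dim on both. Cidec was at least 36.6-fold higher (107 and 4593), and Lep had 741 and 720. The part of such shifts in the ratios of the members was not tested.

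**Figure D5:**
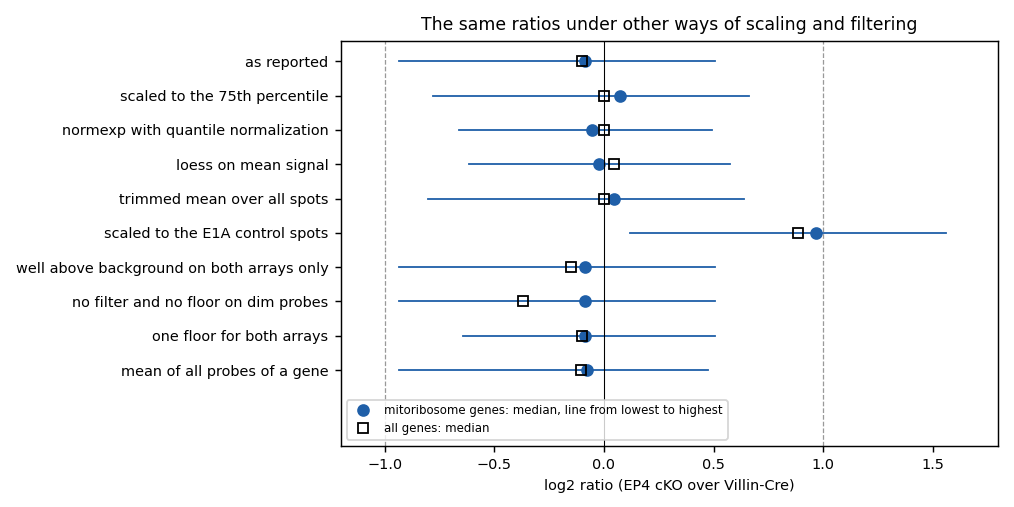
The median log2 ratio (EP4 cKO over Villin-Cre) of the 78 members (circle, with a line from the lowest to the highest) and of all genes (square) as reported and under 9 other settings. Circle and square stay close under every scaling, and both move to near 1 only when the arrays are scaled to the E1A control spots. They lie further apart without the filter on dim probes, with the circle at -0.09 and the square at -0.37.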

How the data were processed

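RNA of whole colon was hybridized to Agilent SurePrint G3 mouse arrays with Cy3, 1 array per genotype, and samples were grouped by the genotype in the labels. The authors deposited scanner intensities, the processed signal of Feature Extraction (version 12.0.3.1 in the file headers, 11.5.1.1 in the submitters' processing notes), background-subtracted and detrended but not scaled between arrays.

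Spots of controls and outliers were dropped, and repeated spots of 1 probe were averaged. Each array was scaled to a mean of 2500 after trimming 2% at each end (factors 3.45 and 2.68), as in the study's methods. Of 56593 probes, 32984 (58.3%) were named by RefSeq accession through a GRCm38.p6 gene table. The brightest probe (geometric mean) stood for a gene. A probe well above background on 1 array had a bound from the other, at the higher of its own signal there and the dimmest signal well above background (125 and 57.8), and one dim on both had no value. 12813 genes were measured on both arrays and 1853 had a bound. Precision is limited by having 1 array per genotype, and no p-value is given.

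The members, lists and rules were chosen with earlier results of these data known. Genes named are the 8 highest and 8 lowest members, members past 2-fold (none), members with probes of opposite sign, members of 3 regions of the large subunit, the 3 highest and 3 lowest of each list, and Ptger4. Mrps18a, Mrps18c, Mrps30, Mrps33, Mrps36, the members shown for their promoters or neighbours (Mrpl30, Mrpl32, Mrpl43, Mrpl51, Mrps11 and Mrps12 among them), the neighbours, the marker genes, the factors sought in promoters and single genes of the families were named after their values were seen.

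The alternatives were scaling to the 75th percentile, to a trimmed mean over all spots or to E1A control spots, normexp (offset 50, limma 3.58.1, R 4.3.3) with quantile normalization, loess (span 0.3), 3 treatments of dim probes, the mean of all probes, and thresholds of 3-fold and 1.5-fold. The steps were tested on simulated data. Python 3.11.15 with pandas 2.3.3, numpy 2.4.6, statsmodels 0.14.6 and matplotlib 3.10.9 was used.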

Additional observations from a re-analysis of the deposited data

How the results depend on the processing

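No member was past 2-fold under any alternative for dim probes, several probes, normexp, loess, the 75th percentile or the trimmed mean over all spots, and none was past 3-fold. The first exception was scaling to the E1A control spots, where 34 members were more than 2-fold higher beside 40.5% of all genes. Before the arrays were scaled, those spots had a log2 ratio of -0.69. Scaling to them moved the median of all genes up by 0.99. The other exception was the 1.5-fold threshold, past which 2 lay. Medians of ratios moved by more than the 0.035 between spots as follows. With the 75th percentile the medians were 0.072 for the members, 0.079 for the large subunit, 0.064 for the small subunit, -0.073 for mitoribosome proteins with other symbols, -0.14 for translation factors, -0.23 for synthetases, -0.20 for assembly factors, -0.053 for transcription, 0.18 for insertion and import, 0.096 for regulators, -0.13 for cytosolic ribosomal proteins, 0.13 for the respiratory chain and 0.049 for carriers. With the trimmed mean over all spots the medians were 0.047 for the members, 0.055 for the large subunit, 0.040 for the small subunit, -0.098 for mitoribosome proteins with other symbols, -0.16 for translation factors, -0.25 for synthetases, -0.23 for assembly factors, -0.078 for transcription, 0.16 for insertion and import, 0.072 for regulators, -0.15 for cytosolic ribosomal proteins, 0.11 for the respiratory chain and 0.036 for carriers. After loess the medians were -0.021 for the members, -0.028 for the large subunit, 0.0056 for the small subunit, -0.16 for mitoribosome proteins with other symbols, -0.14 for translation factors, -0.27 for synthetases, -0.10 for assembly factors, -0.10 for transcription, 0.093 for regulators, -0.17 for cytosolic ribosomal proteins, 0.056 for the respiratory chain and 0.088 for carriers. After normexp the medians were -0.056 for the small subunit, -0.16 for mitoribosome proteins with other symbols, -0.11 for translation factors, -0.24 for synthetases, -0.052 for assembly factors, -0.13 for transcription, 0.053 for regulators, -0.045 for cytosolic ribosomal proteins, 0.092 for the respiratory chain and 0.048 for carriers. With the E1A control spots the medians were 0.97 for the members, 0.98 for the large subunit, 0.96 for the small subunit, 0.82 for mitoribosome proteins with other symbols, 0.76 for translation factors, 0.67 for synthetases, 0.69 for assembly factors, 0.84 for transcription, 1.08 for insertion and import, 0.99 for regulators, 0.77 for cytosolic ribosomal proteins, 1.03 for the respiratory chain and 0.94 for carriers. With probes averaged per gene the medians were -0.23 for translation factors and -0.20 for regulators. Without the filter on dim probes the median was -0.18 for carriers. The other medians moved by less. The comparison families and the distance of the members from the median of all genes were followed through the settings after seeing the data, and that distance was 0.28 without the filter on dim probes, which lowers all genes and no member. Naming probes by the array's gene name column was not run. No paired analysis was possible because each genotype had 1 array, and none could be left out. Signal over background limits Mrpl35 above all, and single probes limit the 57 genes that had 1.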
